A study of Mus musculus with 2 samples.

Results

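The miRNAs mmu-miR-150, mmu-miR-155 and mmu-miR-342, known for their roles in lymphocytes, were described over every arm that the array measured. Their 6 probes, the 5p and 3p arms of 3 precursors, were taken by name from the 1900 mouse miRNA probes of the array, and no arm was left out for its value. The 3 miRNAs and the marker lists were picked with earlier results of these data known, so their medians are no independent evidence of a direction. The samples were total RNA from mononuclear cells of the lamina propria, the connective tissue layer under the gut epithelium, of the colon of male Balb/c mice. Germ-free mice, which live without microbes, gave 1 array, and mice kept specific pathogen-free (SPF), with a microbiota that lacks listed pathogens, gave the other. No treatment, transgene or age is named in the labels, and the number of mice behind each RNA sample is not stated there. With 1 array per group, none of the differences could be set against the spread between replicates, and no p-value is given.

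Mature miRNAs guide Argonaute proteins to messenger RNAs, mainly through the seed at bases 2 to 8, and lower the output of those messages. miR-150 accumulates in mature resting B and T cells, where it represses the transcription factor Myb, and it falls when these cells are activated. miR-155 is induced in B cells, T cells and myeloid cells by antigen receptors and by microbial ligands, and it represses Socs1, Inpp5d and Spi1. miR-342 is made from an intron of Evl, a gene for an actin regulator, and is abundant in blood cells.

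The sequences that the probes address are shown with the seed in capitals, since the seed sets the targets of each arm. They are RefSeq entries on GRCm38.p6, written 5′ to 3′, and 5 of the 6 arms were matched by name in that table.
miR-150-3p (chr7:45121798-45121819, plus strand): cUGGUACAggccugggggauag
miR-155-5p (chr16:84714143-84714165, plus strand): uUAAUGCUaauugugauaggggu
miR-155-3p (chr16:84714182-84714202, plus strand): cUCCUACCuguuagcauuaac
miR-342-5p (chr12:108658638-108658659, plus strand): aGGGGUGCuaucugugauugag
miR-342-3p (chr12:108658680-108658702, plus strand): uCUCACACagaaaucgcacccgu
The 5 seeds differ from each other, and none of them was the seed of another mature miRNA among the 1738 of that table. The longest run of bases that any of the 5 shared with a miRNA of another precursor was 9. The unmatched arm was miR-150-5p, so neither its seed nor its shared runs were searched. The 2 matched precursors are shown next with their arms in capitals, since both arms of a hairpin were measured.
Mir155 (chr16:84714140-84714204, plus strand): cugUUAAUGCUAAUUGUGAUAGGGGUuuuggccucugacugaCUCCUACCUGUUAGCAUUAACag
Mir342 (chr12:108658620-108658718, plus strand): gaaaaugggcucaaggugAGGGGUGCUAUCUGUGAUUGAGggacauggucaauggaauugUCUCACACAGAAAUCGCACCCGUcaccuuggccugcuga
In GENCODE M21 (GRCm38) Mir155 lies within an exon of the long non-coding RNA gene Mir155hg, which spans 84703167 to 84715245 on chromosome 16. Mir342 lies in an intron of Evl, which spans 108554720 to 108688516 on chromosome 12, on the same strand. Mir150, at 45121757 to 45121821 on the plus strand of chromosome 7, lies within no other annotated gene.

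With the blank spots as background, all 6 arms were lower in the SPF sample than in the germ-free sample after median scaling, by between 1.10-fold and 2.48-fold, while without scaling miR-155-3p was higher, at a log2 value of 0.10. The median of their log2 ratios, SPF over germ-free, was -0.52. Of all 1471 miRNA probes above the floor on both arrays, 57.6% were lower in the SPF sample by any amount, and their median was -0.06. Net intensity is the median intensity of a spot minus the mean of the array's blank spots, and the SPF values were scaled by 0.849 so that the median of the shared miRNAs was the same on both arrays. A probe counted as detected above a floor set 2 SD over the blank mean, which was 9.05 in net intensity for germ-free and 10.7 for SPF. Of the 6 arms, only miR-150-5p was at least 2-fold lower, a size that 1.43% of the shared miRNA probes reached. None was at least 2-fold higher, against 1.56% of the shared probes. In RNA from a mixed isolate, fewer cells of a type and less RNA per cell cannot be told apart.

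**Figure D1:**
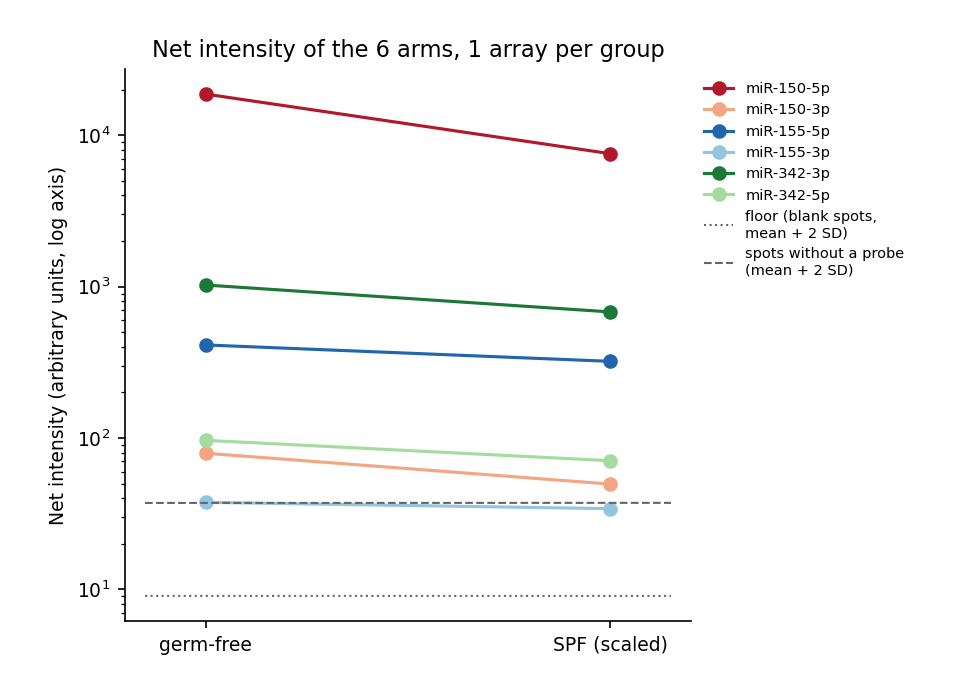
Net intensity (log axis, arbitrary units) of each arm in the germ-free sample and, after scaling, in the SPF sample. Lines join the 2 arrays of an arm, the dotted line is the floor and the dashed line the mean + 2 SD of spots without a probe. miR-150-5p drops from 18699.5 to 7552, and miR-155-3p lies at the dashed line for germ-free and just under it for SPF.

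miR-150-5p, the main arm of its precursor, had a net intensity of 18699.5 in the germ-free sample and of 8894, or 7552 after scaling, in the SPF sample. It was the brightest of the 6 arms on both arrays, the 7th brightest of all miRNA probes in the germ-free sample and the 24th in the SPF sample. It held 1.82% of the net signal of all miRNA probes in the germ-free sample and 0.752% in the SPF sample. The difference was 2.48-fold, a log2 value of -1.31, and 5 of the 1471 shared miRNA probes had a lower value. Brightness depends on the probe as well as on the amount of RNA, so these ranks do not order the miRNAs by abundance.

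miR-150-3p, the other arm of the hairpin, was far dimmer, with a net intensity of 79.3 in the germ-free sample and 49.6 after scaling in the SPF sample. It too was lower in the SPF sample, 1.60-fold or a log2 value of -0.68, and 5.17% of the shared probes had a lower value. The value of the 5p arm was lower than that of the 3p arm by 0.63 on the log2 scale. Of the 465 precursors with both arms above the floor on both arrays, 12.9% had arms that differed by more than this, and the median difference between arms, without its sign, was 0.25.

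miR-155-5p, the arm that represses Socs1 and Inpp5d, had a net intensity of 412 in the germ-free sample and 321 after scaling in the SPF sample. The SPF value was 1.28-fold lower, a log2 value of -0.36, and 17.8% of the shared probes had a lower value. Before background subtraction and scaling its spot read 540 for germ-free and 536 for SPF, so the size of this difference rests on the blank level and the scaling. miR-155-3p, the minor arm, had net intensities of 37.6 and 34.1, the latter after scaling. They differed by 3.45, less than the SD of the blank spots, which was 4.53 for germ-free and 5.33 for SPF. The unscaled net intensity of miR-155-3p was the higher in the SPF sample, at 40.2.

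miR-342-3p, the brighter arm of the Evl intron hairpin, had a net intensity of 1024 in the germ-free sample and 680 after scaling in the SPF sample. This was 1.51-fold lower in the SPF sample, a log2 value of -0.59, and 7.55% of the shared probes had a lower value. miR-342-5p had net intensities of 96.5 and 70.7, the latter after scaling, which was 1.36-fold lower, a log2 value of -0.45. Both arms of this hairpin were thus lower in the SPF sample, and the 5p value was 0.14 above the 3p value on the log2 scale. A larger difference between arms was seen in 71.6% of the 465 precursors. For miR-155 the 5p value was 0.22 below the 3p value, and 55.5% of the precursors differed by more.

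**Figure D2:**
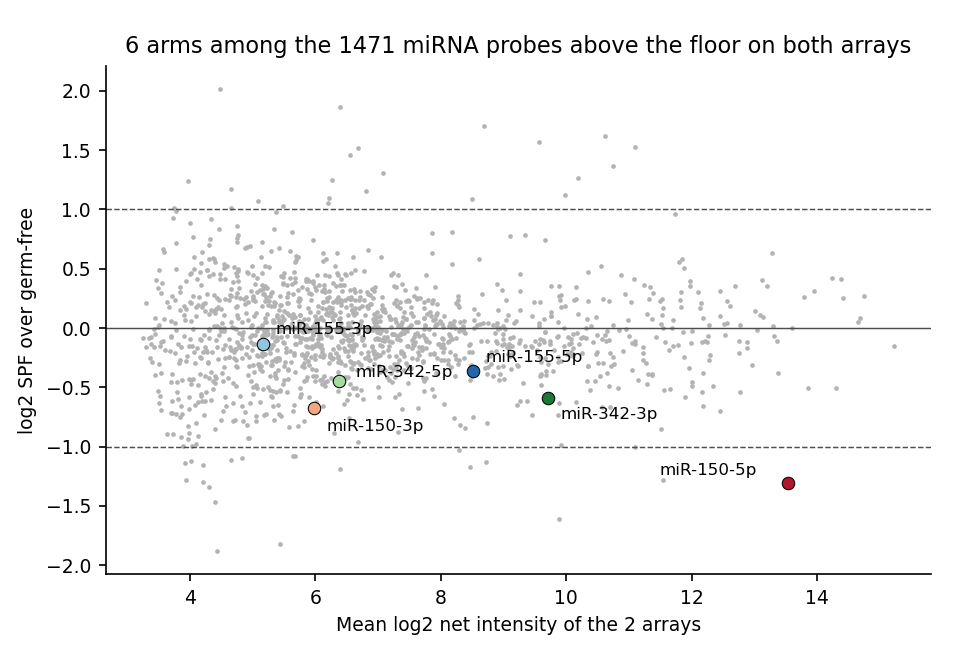
Log2 SPF over germ-free against the mean log2 net intensity of the 2 arrays, for the 1471 miRNA probes above the floor on both (grey) and the 6 arms (coloured, labelled). Dashed lines mark a 2-fold difference, and of the 6 arms miR-150-5p lies below the lower one.

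The technical spread could be read only from repeated spots within an array. Over 4 bright control probes, each spotted 8 times per array, the SD of log2 net intensity was 0.092, which gives 0.13 for a difference between single bright spots. miR-150-5p, the one arm brighter than the dimmest of these controls, differed by 10.1 times this SD. Whether it was also dimmer than the brightest control was not examined. The dimmest control had a mean net intensity of 1135, above miR-342-3p and the other 4 arms. For miR-342-3p, just below it, the difference was 4.54 times the SD, and for the dimmer arms no such multiple is given. These repeats hold no spread between extractions, labellings, hybridisations or mice.

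How far the dim arms stand above unspecific signal was read from the 174 spots without a probe, whose mean + 2 SD was an intensity of 165.8 for germ-free and 202.2 for SPF. miR-150-3p, with spot intensities of 208 and 217, and miR-342-5p, with 225 and 242, lay above that level on both arrays, although 3 and 1 of the spots without a probe were brighter than them in the SPF sample. miR-155-3p, at 166.1 for germ-free and 198.5 for SPF, lay just above it on the first and below it on the second. Of the spots without a probe, 7 were brighter than miR-155-3p for germ-free and 8 for SPF. Its level was therefore not separated from that of the brightest spots without a probe on either array. The brightest spot adjoining miR-150-3p read 7523 for germ-free and 7667 for SPF. At miR-342-5p the brightest read 2219 and 1713, and at miR-155-3p 240 and 244. The part of these neighbours in the signal of the dim arms was not tested.

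The local background, the intensity around each spot, differed between the arrays at miR-150-5p and miR-342-3p. At miR-150-5p it was 21608 in the germ-free sample, above the 18828 of the spot itself and the highest of all 3200 spots, against 2077 beside a spot of 9052 in the SPF sample. The 5 adjoining spots of its block read between 126 and 370 in the germ-free sample and between 150 and 449 in the SPF sample. Within its block the spots next to miR-150-5p were thus dim on both, and spots across the block's edge were not examined. At miR-155-5p the local background was close on the 2 arrays, at 605 for germ-free and 578 for SPF, and exceeded the spot on both. At miR-342-3p it was 1009 for germ-free and 382 for SPF, or 87.5% and 39.8% of the spot's intensity. Over all miRNA spots brighter than an intensity of 500, the local background had a median of 63.7% of the spot's intensity in the germ-free sample and 44.2% in the SPF sample. It reached or exceeded the spot at 30 of 320 such spots in the germ-free sample and at 5 of 347 in the SPF sample.

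**Figure D3:**
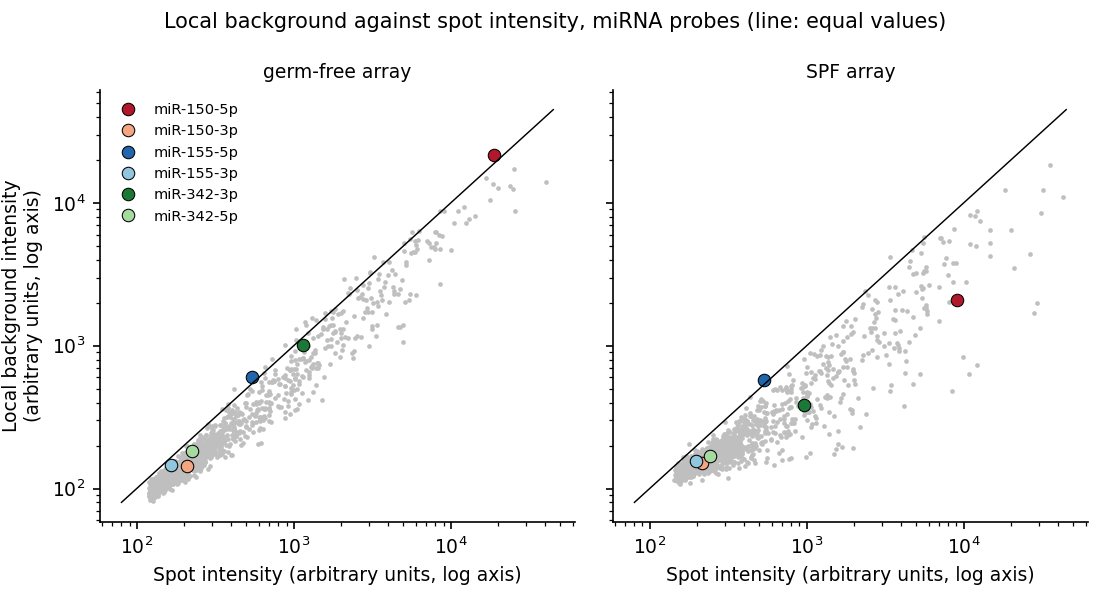
Local background against spot intensity (both log axes, arbitrary units) for all miRNA probes (grey) and the 6 arms (coloured) on each array, with a line at equal values. miR-155-5p lies above the line on both arrays and miR-150-5p in the germ-free sample, while in the SPF sample miR-150-5p lies well below it, at 22.9% of its spot's intensity.

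The values of miR-150-5p also lay in different ranges of the intensity scale on the 2 arrays. The deposited intensities combine scans at 3 gains, and in the germ-free sample the 22 spots at 16752 or above were whole numbers while all spots below carried decimals. The germ-free value of miR-150-5p, 18828, was among those whole numbers, while the SPF value was below the lowest whole number of its array, 18348. The values of the other 5 arms carried decimals on both arrays. The part of this change of range in the difference of miR-150-5p was not tested.

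With the local background subtracted in place of the blank mean, miR-150-5p and miR-155-5p had no value, because the spot did not exceed its background on at least 1 array. The log2 value of miR-342-3p was then 1.58, that of miR-155-3p 0.64, that of miR-342-5p 0.36 and that of miR-150-3p -0.38, so the median over these 4 arms was 0.50. Under this setting the 59 of 64 repeated control spots that had a value spread with an SD of 1.34. Over the other 13 ways of processing, miR-150-5p ran from -1.42 to -1.07, miR-150-3p from -0.91 to -0.21, miR-155-5p from -0.45 to -0.12, miR-342-3p from -0.68 to -0.35 and miR-342-5p from -0.56 to -0.17. The direction of miR-155-3p changed among them, from -0.27 to 0.10. Leaving out the scaling shifts every probe by the same amount and raised the median of all shared miRNAs to 0.18. Relative to the median of all shared miRNAs, miR-150-5p was at -1.25 with or without it, by construction.

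**Figure D4:**
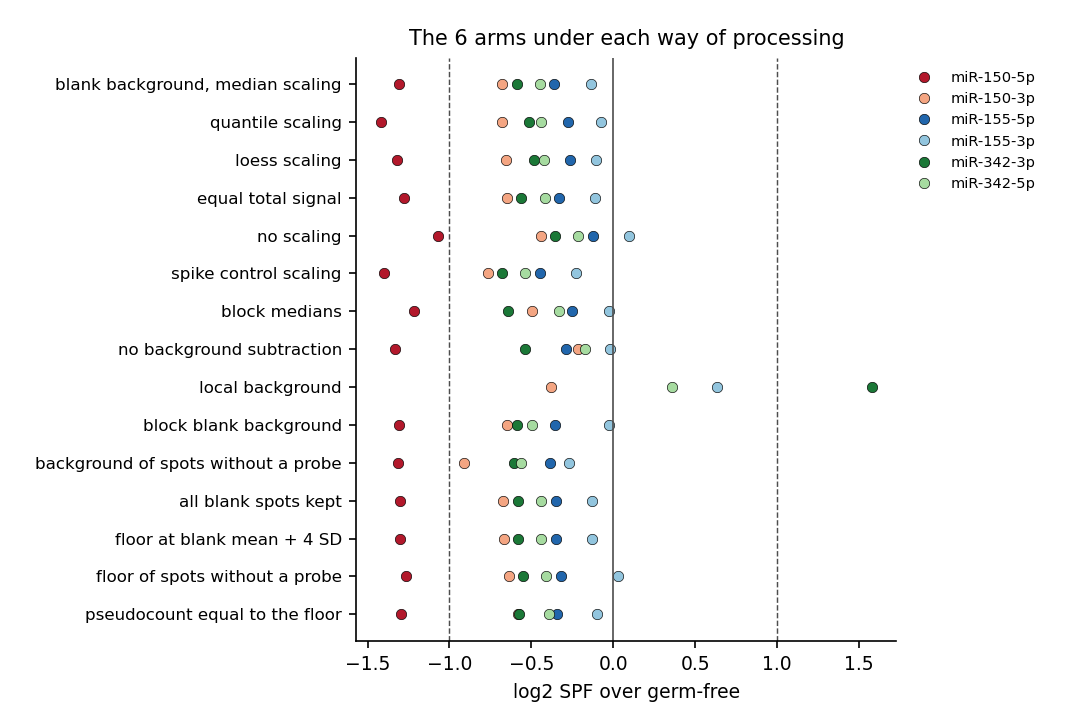
Log2 SPF over germ-free of each arm (colours) under each way of processing (rows), with dashed lines at a 2-fold difference. miR-150-5p stays left of -1 wherever it has a value, and the row of the local background stands apart, with miR-342-3p at 1.58.

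The probes nearest to each main arm, by the distance between log2 net intensities on the 2 arrays, are a description of likeness over 2 points only. Nearest to miR-155-5p were miR-1906, miR-6354 and miR-3069-3p, at log2 values of -0.41, -0.31 and -0.44 and distances of up to 0.082. Nearest to miR-342-3p were miR-30e-5p at -0.59, miR-714 at -0.40 and miR-486a-3p at -0.48, with distances of up to 0.17. miR-150-5p had no such close neighbour, since miR-16-5p at -0.38, miR-1195 at -0.51 and miR-5100 at -0.11 lay 0.70 to 0.88 away.

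Other leukocyte miRNAs were read from lists to place these arms. miR-142a, a miRNA shared by all blood lineages, had net intensities of 5799 and 3681 in its 5p arm and of 3081 and 1534 in its 3p arm, the second of each pair being the scaled SPF value. Its log2 values were -0.66 and -1.01, so both arms were lower in the SPF sample, although the 5p arm was at 0.50 with local background subtraction. Of the miR-181 family, which tunes antigen receptor signalling in developing T cells, 4 of the 5 probes above the floor on both arrays were lower, with a median of -0.17. Among all shared miRNA probes 57.6% were lower. miR-181a-5p was at -0.73, miR-181c-5p at -0.58, miR-181d-5p at -0.02 and miR-181b-5p at 0.31. The median of the 6 arms, -0.52, was lower than that of the miR-181 family. It was higher than the median of the 2 miR-142a arms, -0.83, and close to that of the erythroid list, -0.46. No test of these differences is possible with 1 array per group. The median of the miR-181 family was 0.06 without scaling and 0.07 with correction for block medians.

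Of 27 probes of miRNAs studied in activated or regulatory lymphocytes, 19 were lower in the SPF sample, with a median of -0.20 that was 0.03 without scaling. They ran from miR-10a-5p, a miRNA of a Hox cluster found in regulatory T cells, at -1.13 and miR-92a-3p, of a cluster that drives lymphocyte proliferation, at -0.74 to miR-21a-5p, induced in activated lymphocytes and myeloid cells, at 0.96 and miR-182-5p at 1.31. This list thus held members in both directions. Among all shared miRNA probes 57.6% were lower, with a median of -0.06.

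Markers of epithelial cells were mostly higher in the SPF sample. Among all shared miRNA probes 57.6% were lower in the SPF sample by any amount and 1.56% were at least 2-fold higher, with a median of -0.06. Of 19 epithelial probes 17 were above the floor on both arrays, and 15 of these were higher in the SPF sample, 10 of them at least 2-fold, with a median of 1.09. That median was 0.38 with no background subtracted and 0.25 with the local background. Their summed net intensity was 6028 for germ-free and 15217 after scaling for SPF, and miR-429-5p and miR-203-5p were under the floor on both. The part of this in the lower values of miR-150, miR-155 and miR-342 was not tested. Both isolates thus held epithelial miRNAs beside those of leukocytes.

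**Figure D5:**
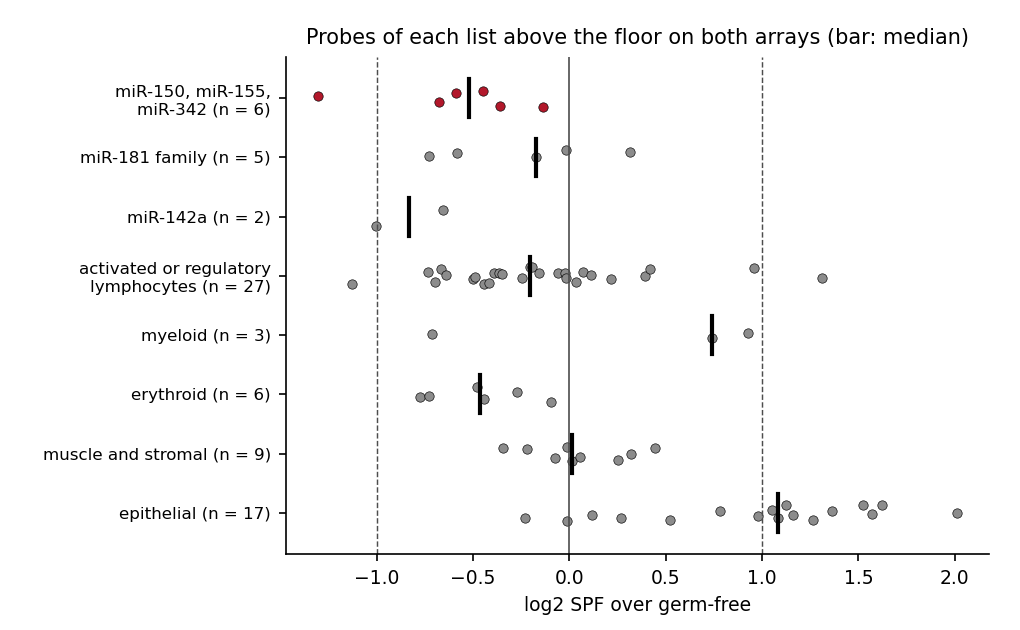
Log2 SPF over germ-free of each probe above the floor on both arrays, for the 6 arms (red) and 7 marker lists (grey), with a bar at each median and dashed lines at a 2-fold difference. The 6 arms lie between -1.31 and -0.14, and 15 of the 17 epithelial probes lie above 0.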

How the data were processed

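Total RNA was labelled with Hy5 and hybridised to 1 array per group, per the labels' protocols. Not given in the sources used here are the array platform, the scanner and the image software. The deposited intensity of each of 3200 spots is a median at 635 nm on a scale that combines scans at 3 gains, per the file headers, with a median local background intensity beside it. The deposited columns show no background subtraction or scaling between the arrays. From them the net intensity, the floor and log2 SPF over germ-free were computed in Python 3.11.15 with numpy 2.4.6, pandas 2.3.3 and statsmodels 0.14.6. The blank mean came from 896 spots on the germ-free array and from 895 on the SPF array, where 1 spot marked NG was left out. The floor was permissive: it was exceeded by 66.7% of the probeless spots for germ-free and by 71.8% for SPF. The lone array per group limits the precision, and no test between groups was run. The procedure was tested on simulated data.

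The members and lists were chosen with earlier results of these data known. The named miRNAs are all 6 arms, the 3 nearest probes of each main arm and the 2 lowest and 2 highest probes of the lymphocyte and leukocyte lists. Any miRNA sharing a seed with 1 of the 5 matched arms was also to be named, and miR-150-5p was left out of that search. The other lists are given by counts. The alternatives were 6 scalings (quantile, loess with a span of 0.4, equal total signal, none, spike controls, block medians), 4 backgrounds, all blank spots kept, 3 treatments of low values, and folds of 1.5 and 3.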

Additional observations from a re-analysis of the deposited data

Results flagged for a closer look

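The local background column was used in no main comparison, and at 3 spots of these arms it reached or exceeded the intensity of the spot itself. At miR-150-5p on the germ-free array it was 21608 beside a spot of 18828. At miR-155-5p it was 605.1 beside a spot of 540 on the germ-free array and 577.9 beside a spot of 536 on the SPF array.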

How the results depend on the processing

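Of the 16 alternatives, 14 changed the scaling, the background or the treatment of low values and 2 changed the fold. The median over the 6 arms was -0.28 without scaling, -0.25 with no background subtracted and 0.50 with the local background, where 4 arms had a value. It was within 0.13 of its main value of -0.52 under the other 11, of which the floor of spots without a probe left 5 arms. The 0.13 is the technical SD of a difference between single bright spots, and it does not measure the spread of this median. The number of arms past the fold in the lower direction was 3 at a fold of 1.5, 0 at a fold of 3 and 0 with local background subtraction, where 1 arm was past it in the higher direction. With local background subtraction 5.58% of all shared miRNA probes were at least 2-fold lower, against 1.43% in the main setting. The shares of all probes at folds of 1.5 and 3, and of those higher with local background subtraction, were not computed, so these counts are not set against all probes. In the main setting 7.55% of the shared probes had a lower value than miR-342-3p, the arm nearest to a fold of 1.5, at 1.51-fold. The change of the median without scaling is the same shift for every probe, and relative to the median of all shared miRNAs it stayed at -0.46, by construction. The changes of the counts with the fold come from the fold itself. With local background subtraction miR-150-5p had no value to count as lower. The cause of the other changes of the median and the counts was not tested.

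The direction of miR-155-3p changed without scaling (0.10) and with local background subtraction (0.64). With the floor of spots without a probe it was at 0.029 or lower, an upper bound that gives no direction, since its SPF value was under that floor. Local background subtraction also turned miR-342-3p (1.58), miR-342-5p (0.36), miR-142a-5p (0.50), miR-10a-5p (0.11), miR-182-5p (-0.29), miR-92a-3p (0.19), miR-3069-3p (0.19), miR-30e-5p (0.25), miR-6354 (0.19), miR-5100 (0.084) and miR-181d-5p (0.31). miR-5100 was at 0.13 without scaling. miR-181d-5p was at 0.012 with loess, 0.013 with equal total signal, 0.22 without scaling, 0.16 with block medians, 0.0015 without background subtraction and 0.024 with the floor of spots without a probe.

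List medians turned with local background subtraction for the miR-181 family (0.12), miR-142a (0.060), the activated or regulatory lymphocyte list (0.0093), the myeloid list (-0.054) and the muscle and stromal list (-0.12). The muscle and stromal median was -0.076 with spike control scaling and -0.0094 without background subtraction. The miR-181 median was 0.062 without scaling and 0.072 with block medians, and the activated or regulatory lymphocyte median was 0.033 without scaling. No paired analysis was possible because each group had 1 array, and for the same reason no replicate could be left out. Signal over background limits miR-155-3p most, at 4.15 and 3.77 times the floor.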

Other observations

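Other lists of cells that the isolate could hold gave the following values. Of 3 myeloid probes above the floor on both arrays 1 was lower on the SPF array, with a median of 0.74. That median is the value of 1 probe, whose net intensity was 622 on the germ-free and 1040 after scaling on the SPF array. With no background subtracted the median was 0.11, the value of another probe, the dimmest of the 3 on the germ-free array. That dimmest probe had a net intensity of 9.65 there, where the floor was 9.05. All 6 erythroid probes were lower, with a median of -0.46 and values from -0.77 to -0.10, and their summed net intensity was 8107 on the germ-free and 6466 after scaling on the SPF array. Of 9 muscle and stromal probes 4 were lower, with a median of 0.01. Among all shared miRNA probes 57.6% were lower, with a median of -0.06.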
